A study of Homo sapiens with 8 samples.

Results

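The response to TGFβ was read in 4 of the 8 mRNA libraries of the series: 2 libraries of Panc-1 cells that carried a control siRNA (siControl) and were left untreated, and 2 that carried the same siRNA and received TGFβ (siControl + TGFβ). They were chosen by their labels alone, and all 13307 genes of the table were compared. Panc-1 is an established human line from a carcinoma of the pancreatic duct, so that the data describe 1 line. All cells of the series were transfected with siRNA by the lipid reagent RNAiMAX, and TGFβ was added the next day at 10 ng/ml for 48 h. The other 4 libraries carried siRNA against PHF13, a protein that reads methylated histone H3, without TGFβ (siPHF13) or with it (siPHF13 + TGFβ). The study asked what PHF13 does in the epithelial-mesenchymal transition (EMT) that TGFβ brings about. The comparison reported here is the mRNA response to TGFβ with PHF13 in place.

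TGFβ binds a complex of type II and type I receptor kinases. The activated receptor phosphorylates SMAD2 and SMAD3, which join SMAD4 and act in the nucleus with partners such as AP1 on target genes. In epithelial cells the pathway is known for slowing the cell cycle, for building extracellular matrix, and for EMT, in which cells give up E-cadherin junctions and keratins and take up a motile, contractile state. Transcription factors of the SNAI and ZEB families repress epithelial genes in that state. The pathway also switches on its own inhibitors.

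Between 40193201 and 46700806 reads fell on genes in the 4 libraries. The squared difference between the replicates, divided by the counting variance, averaged 3.64 in siControl and 11.5 in siControl + TGFβ, where counting noise alone would give 1, so the treated pair was the less even one. Values are normalized counts, that is counts of reads divided by a size factor of the library. They scale with transcript length and are compared between libraries and not between genes. The labels do not say whether the 2 libraries of a group came from separate cultures. The p-values measure only the spread between libraries of the same group. That spread was taken from all 8 libraries of the series, the siPHF13 pairs included. Of 8 markers of duct epithelium 6 were measured, and their summed level was 198120 and 208584 normalized counts without TGFβ and 131136 and 135347 with it, most of it from *KRT8*, *KRT18* and *KRT19*. The members did not move together. *SOX9*, of the same list, went up from 4696 and 4609 to 9444 and 7979, and *KRT7* had 426 and 414 without TGFβ and 440 and 427 with it. *EPCAM*, a defining epithelial surface protein, stood at only 157 and 158 normalized counts without TGFβ and at 135 and 115 with it. None of 7 acinar and none of 6 endocrine markers was among the genes analysed. Of 7 fibroblast markers 2 were, at a summed level of 41.7 to 88.4, and of 5 endothelial markers 1 was, at 7.59 to 20.6. Of 6 blood markers 2 were, summed at 6238 to 7801, nearly all of it *CD68*, a lysosomal protein that epithelial cells also make. In RNA from whole cultures, fewer cells of a kind and less RNA per cell cannot be told apart.

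TGFβ raised 435 genes and lowered 202 in siControl cells, which is 3.27% and 1.52% of the genes tested. The counts called in the gene lists below are to be read against these shares. Lists share members, so the same called gene can be counted again in another list. A gene was called where the Benjamini-Hochberg adjusted p of limma was under 0.05 and the absolute log2 fold change over 0.58, about 1.5-fold. Among the called genes the median log2 fold change was 0.93 for rises and -0.84 for falls, against -0.01 over all genes. Without siControl replicate 2 the falls numbered 131. At least 4-fold changes were 47 of the rises and 14 of the falls. The 435 raised genes held 2.07% of all normalized counts without TGFβ and 4.10% with it. In all 637 called genes both treated libraries lay on one side of both untreated ones, which was also so for 29.96% of all genes upwards and 30.19% downwards. A gene at a mean under 30 normalized counts had a median standard error of 0.60 on the log2 scale, and one over 3000 had 0.07, so small changes could be called only in genes with high counts.

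**Figure D1:**
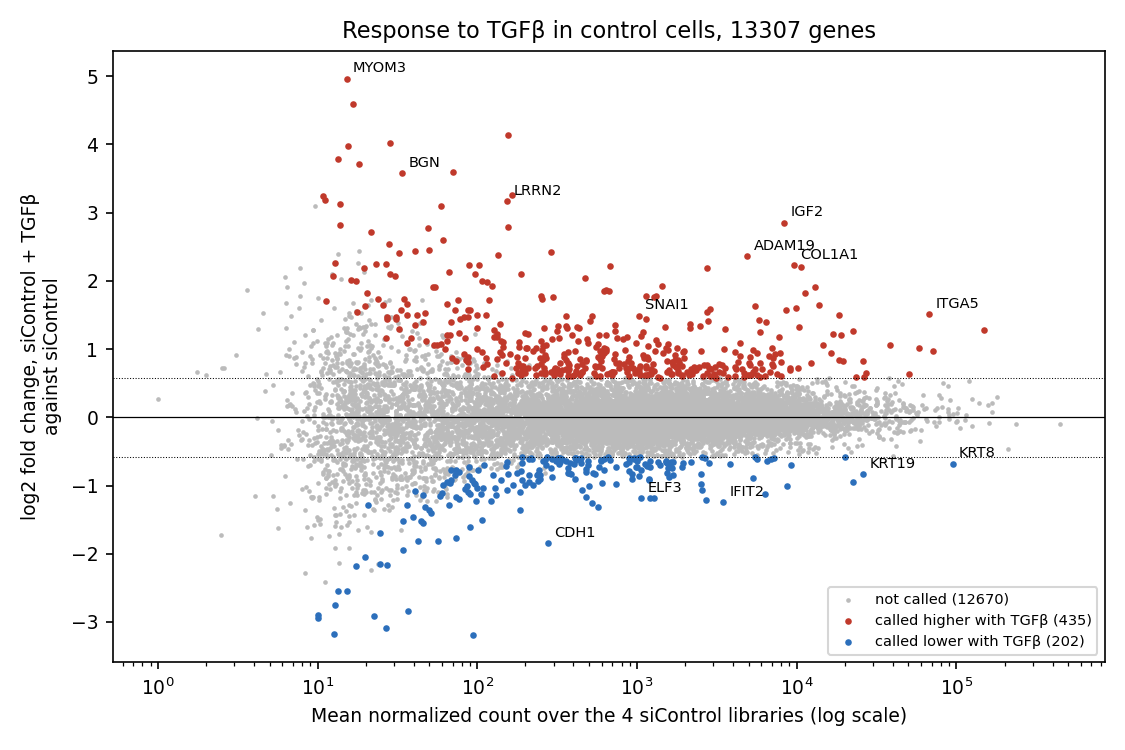
Each point is one of 13307 genes. The x axis is the mean normalized count over the 4 siControl libraries on a log scale and the y axis the log2 fold change of siControl + TGFβ against siControl, with dotted lines at 0.58 and -0.58. The 435 called rises and 202 called falls spread over most of the range of levels, and *ITGA5* stands out at high counts.

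In the signalling chain itself few mRNAs changed. *TGFBR2* and *TGFBR1*, the receptors of TGFβ, had log2 fold changes of 0.08 (standard error 0.06, adjusted p = 0.418) and 0.13 (standard error 0.12, adjusted p = 0.527). *SMAD2* had 3961 and 4251 normalized counts without TGFβ and 3976 and 4228 with it. *SMAD3* had 32296 and 32234 without and 30153 and 30436 with it, and *SMAD4*, which many pancreatic carcinomas have lost, had 1710 and 1657 without and 1580 and 1720 with it. Neither *SMAD3* nor *SMAD4* passed the test (adjusted p = 0.433 and 0.88). Of 18 receptors and SMADs 1 rose and 1 fell, with a list median of 0.06. The riser was *BMPR2*, the type II receptor of bone morphogenetic proteins (BMPs), from 5214 and 5496 to 10420 and 10199 normalized counts (log2 fold change 0.95, standard error 0.08). The faller was *TGFBR3*, a co-receptor that presents TGFβ, from 1353 and 1303 to 658 and 805 (log2 fold change -0.87, standard error 0.13, adjusted p = 0.000433). *PHF13*, the protein the study depletes in its other arm, had 1804 and 1662 normalized counts without TGFβ and 1586 and 1709 with it, and the difference did not pass the test (log2 fold change -0.07, standard error 0.09, adjusted p = 0.671).

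Several of the pathway's own brakes rose. *PMEPA1*, a membrane protein that keeps SMADs from the receptor, had 3834 and 3745 normalized counts without TGFβ and 18006 and 16900 with it (log2 fold change 2.20, standard error 0.06, adjusted p = 6.24e-11). It lies on the minus strand of chromosome 20, at 56223448 to 56286592 in GRCh37. *SKIL*, a nuclear co-repressor of SMADs, had 3432 and 3528 without TGFβ and 7927 and 8615 with it (log2 fold change 1.25, standard error 0.07). *SMAD7*, the inhibitory SMAD, had 968 and 1046 without and 2038 and 2218 with it (log2 fold change 1.08, standard error 0.08). *SMURF2*, a ubiquitin ligase that works with *SMAD7*, rose from 4022 and 4155 to 6292 and 6282 (log2 fold change 0.62, standard error 0.07). These were 4 of 15 feedback inhibitors measured, or 26.7% against 3.27% of all genes. None of the 15 was called lower, and 14 lay above 0, with a median of 0.22. When 1 of the 4 libraries was left out the median ranged from 0.15 to 0.34, and 11 lay above 0 without siControl replicate 2.

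Among ligands and the proteins that store them, 4 of 17 rose and 3 fell. The median was 0.23 (0.19 to 0.36 when 1 of the 4 libraries was left out). Only 1 fall was left without siControl replicate 1, siControl replicate 2 or siControl + TGFβ replicate 2. *LTBP2*, a matrix protein of the latent TGFβ binding family, rose from 9641 and 9537 to 27646 and 26452 normalized counts (log2 fold change 1.496, standard error 0.07). *TGFB1*, the ligand itself, rose from 2043 and 1988 to 3724 and 3174, and *TGFB3* fell from 474 and 530 to 374 and 291. The fall of *TGFB3* lost its call in these 3 fits (adjusted p = 0.0902, 0.209 and 0.187). *LTBP3* and *FSTL1*, a secreted glycoprotein, also rose, by 0.70 and 0.88 on the log2 scale. Both activin subunits of the list that passed the test went down. *INHBB* fell from 1737 and 1619 to 702 and 779 (log2 fold change -1.18, standard error 0.09, adjusted p = 1.24e-06). *INHBA* fell from 158 and 161 to 111 and 69.9 (log2 fold change -0.85, standard error 0.25, adjusted p = 0.0351), and its call was lost without siControl replicate 1, siControl replicate 2 or siControl + TGFβ replicate 2 (adjusted p = 0.155, 0.172 and 0.253). Of 12 BMP ligands, antagonists and ID genes, *NOG*, a BMP antagonist, and *ID3* rose by 1.01 and 0.73 and *BMP5* fell by 0.66 on the log2 scale, with a median of 0.11. *BMP5* lost its call without siControl replicate 2 or siControl + TGFβ replicate 2 (log2 fold changes -0.50 and -0.56). The median of the list was 0.19 without siControl replicate 2, -0.01 without siControl + TGFβ replicate 1 and 0.41 without siControl + TGFβ replicate 2, so its sign rests on 1 library. *ID1*, a classic BMP target, had 3098 and 2898 normalized counts without TGFβ and 2724 and 2640 with it (adjusted p = 0.254).

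Known SMAD target genes had the highest median of the 30 lists. Of 20 measured, 16 were called higher and none lower, and the median log2 fold change was 1.16. The 4 that were not called were *ITGB6* (1.06), *ITGB5* (0.36), *TIMP1* (0.02) and *TAGLN* (-0.01). *COL7A1*, the anchoring fibril collagen, had 4922 and 4976 without TGFβ and 17175 and 17785 with it (log2 fold change 1.82, standard error 0.06). *ANGPTL4*, a secreted inhibitor of lipoprotein lipase, had 7003 and 6373 without and 22023 and 19715 with it (log2 fold change 1.64, standard error 0.08). *IL11*, a cytokine of the interleukin 6 family, had 181 and 180 without and 452 and 470 with it (log2 fold change 1.35, standard error 0.12). *BHLHE40*, a transcriptional repressor, rose from 6743 and 6944 to 12140 and 10618. In *COL7A1*, *ANGPTL4*, *IL11* and *BHLHE40* both treated libraries lay above both untreated ones, as in 29.96% of all genes.

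Promoter windows from 250 bases before to 50 after a transcription start were taken from RefSeq on build GRCh38.p14, and 10736 of the 13307 genes had at least 1 of the 15700 windows. *CDH1* and *SNAI1* had none. The core of the CAGA box, which SMAD3 and SMAD4 bind (CAGACA on either strand), was in 17.4% of 553 windows of raised genes, 15.4% of 214 windows of lowered genes and 13.3% of all windows. The AP1 site (TGANTCA) was in 6.87%, 7.94% and 5.31%, in the same order. The SMAD palindrome GTCTAGAC was in none of the windows of called genes and in 0.166% of all. The E-box of SNAI and ZEB factors (CACCTG) was in 20.2%, 20.1% and 18.7%, and the TEAD site (GGAATG) in 12.1%, 13.6% and 11.4%. The CArG box of serum response factor was in 2.17%, 0.467% and 1.15%. No test was made of these shares, and a match is a run of letters and not a bound site. In the list of SMAD targets the CAGA core was in 13.6% and the AP1 site in 4.55% of 22 windows, near the shares of all windows. Of the SMAD targets called higher that had a window, *PMEPA1*, *COL7A1* and *IL11* held a CAGA or AP1 match before a start. Their windows are shown with the 250 bases before the start, 5′ to 3′ on the gene's strand, with the match in capitals. They were picked for the match, after the values were seen. In *PMEPA1* (chr20:57710578-57710827, minus strand, a start with 3 others in the table) and *COL7A1* (chr3:48595330-48595579, minus strand) the capitals mark the CAGA core, on the opposite strand in *COL7A1*. In *IL11* (chr19:55370464-55370713, minus strand) they mark the AP1 site. The matches begin 115, 98 and 96 bases before the start. The window of *SMAD7* (chr18:48942808-48943057, minus strand, one of 3) held no CAGA or AP1 match, and its capitals mark an E-box that begins 49 bases before the start.
PMEPA1: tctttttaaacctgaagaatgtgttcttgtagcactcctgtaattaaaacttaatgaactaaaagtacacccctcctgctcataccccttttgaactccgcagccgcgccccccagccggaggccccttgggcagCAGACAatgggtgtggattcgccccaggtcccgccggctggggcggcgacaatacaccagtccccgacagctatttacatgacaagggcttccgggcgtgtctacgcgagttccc
COL7A1: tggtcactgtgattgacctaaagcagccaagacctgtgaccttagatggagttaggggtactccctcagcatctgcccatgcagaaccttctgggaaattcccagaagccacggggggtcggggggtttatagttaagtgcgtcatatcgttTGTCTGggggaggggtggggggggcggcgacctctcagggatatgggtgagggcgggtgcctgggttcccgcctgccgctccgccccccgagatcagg
IL11: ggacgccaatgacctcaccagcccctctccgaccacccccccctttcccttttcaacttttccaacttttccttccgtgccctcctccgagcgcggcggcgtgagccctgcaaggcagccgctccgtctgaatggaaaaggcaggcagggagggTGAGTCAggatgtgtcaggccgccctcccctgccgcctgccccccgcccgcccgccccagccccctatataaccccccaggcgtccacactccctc
SMAD7: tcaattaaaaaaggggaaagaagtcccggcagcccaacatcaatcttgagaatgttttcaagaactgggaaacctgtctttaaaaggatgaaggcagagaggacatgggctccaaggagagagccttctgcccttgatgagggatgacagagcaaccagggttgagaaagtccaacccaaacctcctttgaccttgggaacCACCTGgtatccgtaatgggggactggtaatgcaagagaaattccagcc

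Some epithelial genes fell and most did not pass the test. *CDH1*, which encodes E-cadherin, had 403 and 460 normalized counts without TGFβ and 118 and 121 with it, the largest fall called among genes whose 4 libraries averaged 100 or more (log2 fold change -1.84, standard error 0.33, adjusted p = 0.00163). *CDH1* lies on the plus strand of chromosome 16 at 68771195 to 68869440 in GRCh37. *CLDN3*, a tight junction claudin, had 136 and 102 without TGFβ and 60.4 and 49.4 with it (log2 fold change -1.09, standard error 0.21, adjusted p = 0.00296), and without siControl replicate 1 it missed the threshold (adjusted p = 0.0573). These were the only falls called among 34 junction and polarity genes, of which 25 lay below 0, with a median of -0.19. *OCLN*, *DSP* and *EPCAM*, of tight junctions, desmosomes and the cell surface, had log2 fold changes of -0.23, -0.17 and -0.34 and were not called. One desmosomal gene went the other way: *PKP1* had 187 and 232 normalized counts without TGFβ and 513 and 525 with it (log2 fold change 1.31, standard error 0.14).

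Keratins of simple epithelia went down from a high level. *KRT8* fell from 113039 and 120045 to 70722 and 74889 normalized counts (log2 fold change -0.68, standard error 0.08), and *KRT19* from 32426 and 34318 to 18358 and 18991 (log2 fold change -0.84, standard error 0.06). *KRT18*, the partner of *KRT8*, had 47375 and 49041 without TGFβ and 32038 and 32946 with it, and its log2 fold change of -0.57 (adjusted p = 5.84e-05) was just short of the threshold on the fold change. Of 9 keratins 2 were called lower, and the median of the list was -0.05. *KRT7* had 426 and 414 normalized counts without TGFβ and 440 and 427 with it (log2 fold change 0.05, adjusted p = 0.872), and the pairs lay side by side without overlap. Of 12 epithelial transcription and splicing factors 2 fell and none rose, with a median of -0.35. They were *ELF3*, an epithelial ETS factor, from 1297 and 1667 to 637 and 659 (log2 fold change -1.18, standard error 0.13), and *GRHL3*, a grainyhead factor, from 1510 and 1618 to 857 and 792. *PPL*, periplakin of the cornified envelope, fell from 3616 and 3883 to 1632 and 1613, and *ITGB4*, the integrin chain of hemidesmosomes, from 3454 and 3470 to 1715 and 1587.

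The transcription factors of EMT rose in part. *SNAI1* had 502 and 565 normalized counts without TGFβ and 1768 and 1267 with it, the largest rise called in the list (log2 fold change 1.49, standard error 0.16, adjusted p = 2.18e-05). The treated pair was uneven, but both values lay above both untreated ones. *SOX9* and *SOX4*, factors of progenitor cells, rose by 0.90 and 0.88 on the log2 scale, *RUNX1* and the chromatin factor *HMGA2* by 0.65 each, and *FOXC2* by 0.63. *FOXC2* lost its call without siControl replicate 2 or siControl + TGFβ replicate 1 (adjusted p = 0.0946 and 0.0964). That made 6 of 17 called higher and none lower, with a median of 0.63. *ZEB1* had 3270 and 3502 without TGFβ and 3673 and 3669 with it (log2 fold change 0.12, standard error 0.07, adjusted p = 0.303). *SNAI2* and *ZEB2* had few reads, *SNAI2* with 11.4 and 10.8 against 34.5 and 22.6 and *ZEB2* with 44.6 and 54.1 against 91.6 and 71.0 normalized counts, and at this level neither passed (log2 fold changes 1.26 and 0.70, standard errors 0.56 and 0.39, adjusted p = 0.155 and 0.257).

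Of 19 mesenchymal markers 4 were called higher and none lower, with a median of 0.30. *MMP2*, a gelatinase, rose from 5366 and 5576 to 21622 and 19682 normalized counts (log2 fold change 1.91, standard error 0.08), and *SPOCK1*, a matrix proteoglycan, from 2539 and 2810 to 8319 and 8271. *NT5E*, the surface enzyme CD73, rose from 40402 and 38654 to 62075 and 61114. Several textbook markers moved less. *VIM*, vimentin, had 160328 and 162535 without TGFβ and 202482 and 195064 with it, which passed on p and not on size (log2 fold change 0.30, standard error 0.07, adjusted p = 0.00836). *CDH2*, N-cadherin, had 2252 and 2074 without and 3101 and 3167 with it (log2 fold change 0.54, standard error 0.08, adjusted p = 0.000269), again short of the size threshold. *FN1*, fibronectin, had 105 and 141 without and 180 and 181 with it (log2 fold change 0.57, standard error 0.29, adjusted p = 0.219). *ACTA2* and *TAGLN*, of smooth muscle, had low counts and log2 fold changes of 0.72 and -0.01 that did not pass (adjusted p = 0.169 and 0.982).

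**Figure D2:**
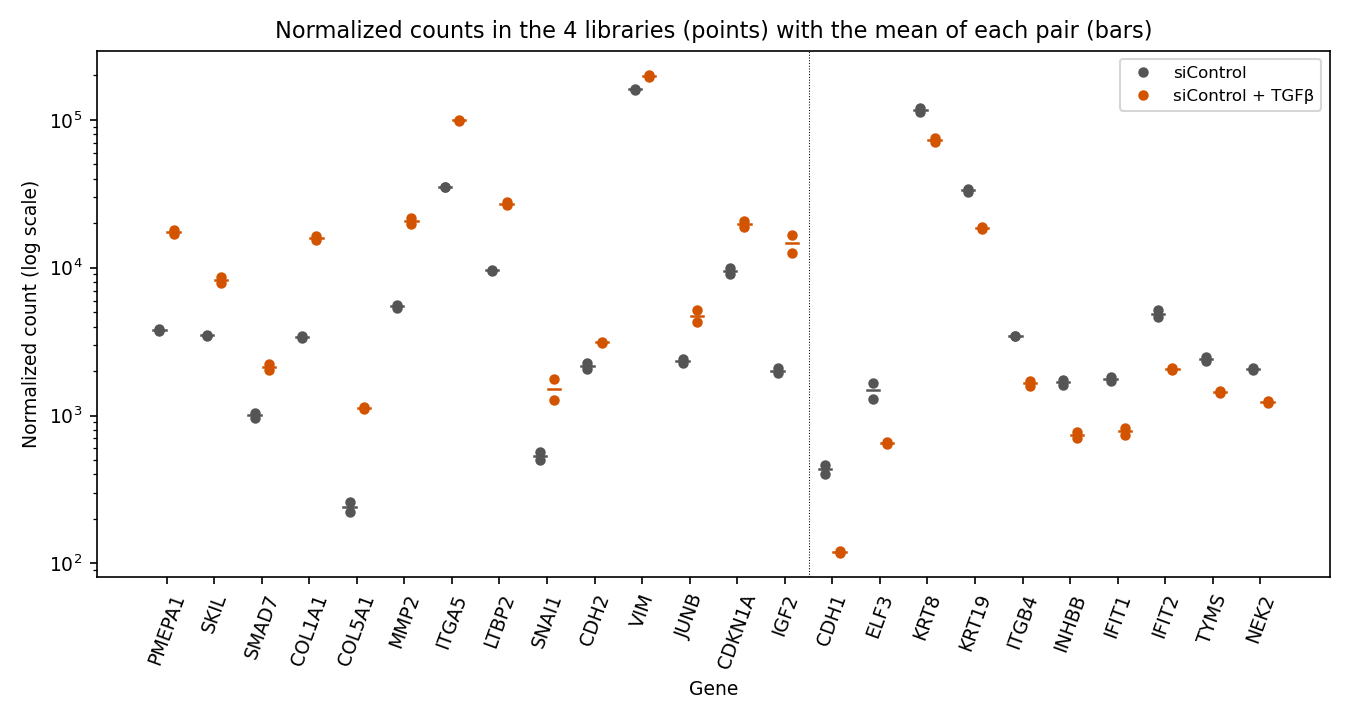
Normalized counts on a log scale of 24 genes, with the 2 siControl libraries in grey, the 2 siControl + TGFβ libraries in orange, and a bar at the mean of each pair. Genes left of the dotted line had higher means with TGFβ and those to the right lower ones. The pairs do not overlap in any of the 24, although *CDH2* and *VIM* were not called. Of all genes 29.96% were separated in this way upwards and 30.19% downwards.

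Collagens made up some of the largest rises. *COL1A1*, the main chain of fibrillar collagen I, had 3345 and 3433 normalized counts without TGFβ and 16414 and 15334 with it (log2 fold change 2.23, standard error 0.06, adjusted p = 6.24e-11). It lies on the minus strand of chromosome 17 at 48261462 to 48278993 in GRCh37. *COL5A1*, which regulates fibril width, had 259 and 222 without TGFβ and 1101 and 1134 with it (log2 fold change 2.22, standard error 0.12). *COL22A1* had 49.3 and 43.2 without and 185 and 184 with it (log2 fold change 1.98, standard error 0.21), and the basement membrane chains *COL4A1* and *COL4A2* rose by 1.06 and 1.00. With *COL7A1* these were 6 of 26 collagens, none was called lower, and the median was 0.20 (0.08 without siControl + TGFβ replicate 2). *COL4A1* lost its call in the fit without that library (adjusted p = 0.0512). *COL1A2* and *COL3A1* were not analysed here. Of 20 folding and crosslinking enzymes 4 rose and none fell, with a median of 0.21. They were *P4HA3*, a prolyl hydroxylase (144 and 92.8 to 423 and 357 normalized counts), *LOXL4*, a lysyl oxidase (78.7 and 69.4 to 192 and 170), *TGM2*, a transglutaminase (4006 and 3677 to 7325 and 7383), and *PCOLCE2*, an enhancer of procollagen cleavage (377 and 322 to 533 and 568). *PCOLCE2* fell just below the size threshold without siControl replicate 2 (log2 fold change 0.55).

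Of 42 matrix glycoproteins and proteoglycans 8 rose and 1 fell, with a median of 0.19. *MFAP2*, of microfibrils, rose from 592 and 634 to 1806 and 1551 normalized counts, *TGFBI* from 24941 and 25062 to 53955 and 50338, and *CTGF* from 6103 and 5707 to 15112 and 14352 (log2 fold change 1.32, standard error 0.07). *BGN*, biglycan, had 0.948 and 12.6 without TGFβ and 63.6 and 57.6 with it, and its rise (log2 fold change 3.58, standard error 0.67, adjusted p = 0.00236) rests on few reads in the untreated libraries. The remaining risers were *IGFBP7*, *LAMB3*, *IGFBP3* and *THBS1*, thrombospondin, an activator of latent TGFβ, at 1.02, 0.86, 0.77 and 0.68. *LAMA3*, a laminin chain of epithelial basement membrane, fell from 1154 and 1116 to 604 and 711 (log2 fold change -0.79, standard error 0.10). The laminin partners *LAMA3* and *LAMB3* thus went in opposite directions.

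Of 31 matrix proteases and inhibitors 11 were called higher and none lower, with a median of 0.38 (0.22 without siControl + TGFβ replicate 1). *ADAM19*, a membrane metalloprotease, had 1619 and 1565 normalized counts without TGFβ and 8412 and 8019 with it (log2 fold change 2.37, standard error 0.07, adjusted p = 1.03e-10). *ADAMTS7* had 93.9 and 87.4 without TGFβ and 485 and 493 with it (log2 fold change 2.42, standard error 0.31). *MMP14*, which activates *MMP2* at the cell surface, rose from 1405 and 1418 to 3686 and 3427, and *MMP9*, the other gelatinase, from 114 and 122 to 282 and 274. *ADAMTS10* rose from 148 and 152 to 411 and 338. *SERPINE2* and *TIMP2*, both inhibitors, rose by 1.17 and 0.81 on the log2 scale. So both proteases and inhibitors were among the risers.

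Integrins changed in both directions, with 4 of 17 higher, 2 lower and a median of 0.32. *ITGA5*, the fibronectin receptor chain, had 35066 and 34918 normalized counts without TGFβ and 100454 and 99104 with it (log2 fold change 1.51, standard error 0.06, adjusted p = 2.51e-09). *ITGAV*, whose dimers bind vitronectin and latent TGFβ, had 38114 and 39034 without and 74932 and 81615 with it (log2 fold change 1.02, standard error 0.06). *ITGB3*, a partner of *ITGAV*, rose from 780 and 867 to 1792 and 1809. *ITGA11*, a collagen receptor chain, had 17.1 and 15.3 without and 57.1 and 44.2 with it, and lost its call without either untreated library or treated replicate 1 (adjusted p = 0.0664, 0.094 and 0.118). *ITGB4* and *ITGA10* fell by 1.07 and 0.74 on the log2 scale. *ITGA2*, a collagen receptor chain, had 74854 and 74234 without TGFβ and 98154 and 106483 with it (log2 fold change 0.46, adjusted p = 0.000341), under the size threshold, and *ITGB6* had 20.9 and 7.21 without and 19.4 and 37.0 with it, with overlapping groups.

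Of 37 contractile and focal adhesion genes 6 rose and none fell, and 31 lay above 0, with a median of 0.24. *TPM1*, tropomyosin, had 13516 and 13023 normalized counts without TGFβ and 32400 and 31436 with it (log2 fold change 1.27, standard error 0.06). *CALD1*, caldesmon, had 482 and 438 without and 1063 and 1007 with it (log2 fold change 1.17, standard error 0.15). *FLNC*, *MYL9*, *PALLD* and *PDLIM7* followed at 0.89, 0.87, 0.75 and 0.61, and *PDLIM7* dropped below the size threshold without siControl + TGFβ replicate 1 (0.46). Of 21 targets of YAP and TEAD 4 rose, *CTGF*, *ANKRD1*, *IGFBP3* and *NT5E*, with a list median of 0.20. *CYR61*, a standard reporter of that pathway, had 11877 and 11911 without TGFβ and 17847 and 16262 with it, a log2 fold change of 0.52 short of the size threshold. *IGFBP3* lost its call without siControl replicate 1, siControl replicate 2 or siControl + TGFβ replicate 1 (adjusted p = 0.14, 0.127 and 0.326).

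Nearly all genes of both cell cycle lists had log2 fold changes below 0, most of them small. Of 40 genes of S phase all 40 lay below 0, with a median of -0.37, and of 54 genes of G2 and mitosis 53 did, with a median of -0.44. Called lower were 3 in the first list and 6 in the second, or 7.5% and 11.1% against 1.52% of all genes, and none was called higher. When 1 of the 4 libraries was left out, the medians ranged from -0.39 to -0.34 for S phase and from -0.46 to -0.44 for G2 and mitosis. Both lists are those in common use for scoring the cell cycle. *TYMS*, thymidylate synthase, had 2324 and 2474 normalized counts without TGFβ and 1423 and 1462 with it (log2 fold change -0.73, standard error 0.10, adjusted p = 0.000194). *NEK2*, a mitotic kinase, had 2104 and 2029 without and 1244 and 1219 with it (log2 fold change -0.75, standard error 0.08), and *CCNB2*, cyclin B2, had 2023 and 2066 without and 1349 and 1252 with it. *E2F8* and *WDR76* of the S phase list fell by 0.70 and 0.65 on the log2 scale, and *FAM64A*, *CDCA3* and *BUB1* of the G2 and mitosis list by 0.73, 0.65 and 0.58. *BUB1* fell short of the size threshold without siControl replicate 2 or siControl + TGFβ replicate 1 (-0.57 and -0.55). *TOP2A*, a topoisomerase of dividing cells, had 23960 and 24321 without and 15145 and 17042 with it. Its log2 fold change of -0.59 fell to -0.58 without siControl replicate 2 and to -0.50 without siControl + TGFβ replicate 1, below the size threshold. *MKI67*, the proliferation marker, had 29131 and 29423 without and 22096 and 22111 with it, a log2 fold change of -0.41 that was not called.

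Of 21 G1 cyclins, CDK inhibitors and MYC, 1 rose and 2 fell, with a median of -0.11. *CDKN1A*, the CDK inhibitor p21, had 9884 and 9137 normalized counts without TGFβ and 20796 and 18979 with it (log2 fold change 1.06, standard error 0.07, adjusted p = 2.42e-07). *CDKN2C*, another CDK inhibitor, fell from 1265 and 1208 to 706 and 794, and *E2F2*, a factor of G1 to S transition, from 512 and 557 to 291 and 281. *MYC*, which TGFβ is known to repress in many epithelial cells, had 3107 and 3302 without TGFβ and 4205 and 3535 with it (log2 fold change 0.27, standard error 0.08, adjusted p = 0.0391), under the size threshold. *CDKN2A* and *CDKN2B* were not analysed here. In the AP1 family only *JUNB* of 18 members was called, from 2404 and 2264 to 5141 and 4288 (log2 fold change 1.01, standard error 0.08), with a list median of 0.02, and *FOSL2* had a log2 fold change of 0.21 (adjusted p = 0.0522).

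Interferon-stimulated genes were called in 1 direction. Of 29 measured 6 were called lower, 20.7% against 1.52% of all genes, and none higher, 24 lay below 0, and the median was -0.38. *IFIT2*, an antiviral RNA-binding protein, had 4612 and 5152 normalized counts without TGFβ and 2098 and 2034 with it (log2 fold change -1.24, standard error 0.10, adjusted p = 1.56e-06). *IFIT1* of the same family had 1714 and 1825 without and 819 and 741 with it (log2 fold change -1.18, standard error 0.11), and *IFIT3* had 2995 and 3464 without and 1782 and 1853 with it. *MX1*, *OASL* and *HERC5* were the others, at -0.95, -0.71 and -0.64. *HERC5* lost its call in each of the 4 fits that left out a siControl library and *OASL* in 3 of them. *MX1* lost its call without either siControl library (adjusted p = 0.0563 and 0.0746). *ISG15*, a ubiquitin-like modifier, had 1157 and 1097 without TGFβ and 1051 and 1012 with it and was not called (adjusted p = 0.388). The number of calls in the list was 3 without siControl replicate 2 and 4 without any one of the other 3 siControl libraries. Of 18 cytokines and chemokines *IL11* rose and *CCL20* and *CXCL5* fell, from 346 and 281 to 199 and 134 and from 94.8 and 148 to 71.2 and 54.5, with a median of -0.14, and *CCL20* lost its call in 2 and *CXCL5* in 3 of the 4 fits that left out a siControl library.

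Growth factors and guidance cues included some of the steepest rises. *IGF2*, insulin-like growth factor II, had 2081 and 1944 normalized counts without TGFβ and 16709 and 12642 with it (log2 fold change 2.85, standard error 0.13, adjusted p = 6.11e-09), although the treated pair was uneven. *IGF2* lies on the minus strand of chromosome 11 at 2150342 to 2179621 in GRCh37 and overlaps an annotated readthrough transcript from *INS*, so its count is uncertain. The strand setting of the counting is not given in the sources used here, and the same holds for other overlapping and antisense genes. *PDGFB* and *PDGFA*, the platelet-derived growth factor chains, rose from 3471 and 3561 to 9798 and 8725 and from 870 and 832 to 2052 and 2213. *FGF1* had 16.1 and 4.51 without TGFβ and 74.4 and 33.9 with it, and its call was lost without siControl replicate 2 or siControl + TGFβ replicate 1 (adjusted p = 0.158 and 0.166). *HGF*, hepatocyte growth factor, fell from 760 and 828 to 408 and 409 (log2 fold change -0.96, standard error 0.12). The list of 37 had 6 rises and 2 falls, with a median of 0.09. The other fall was *IGFBP6*, from 90.1 and 73.9 to 32.3 and 43.2, whose call was lost without siControl replicate 1, siControl replicate 2 or siControl + TGFβ replicate 1 (adjusted p = 0.157, 0.0608 and 0.12). Without siControl replicate 2 the list had 3 rises and 1 fall, and without siControl + TGFβ replicate 1 it had 4 and 1, with a median of 0.00. *VEGFA* rose by 0.60 on the log2 scale and lost its call without siControl replicate 2 or siControl + TGFβ replicate 1 (0.55 and 0.48, under the size threshold).

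Of 52 axon guidance ligands and receptors 8 rose and 1 fell, with a median of 0.08 (0.14 and 0.13 without siControl + TGFβ replicate 1 and 2). *SEMA7A*, a membrane semaphorin, had 632 and 569 normalized counts without TGFβ and 2205 and 2334 with it (log2 fold change 1.92, standard error 0.08). *NRP2*, a semaphorin co-receptor, had 555 and 630 without and 2168 and 1908 with it (log2 fold change 1.78, standard error 0.13), and *EPHB2*, an ephrin receptor kinase, had 4496 and 4098 without and 12960 and 12685 with it (log2 fold change 1.58, standard error 0.07). *EPHA4*, an ephrin receptor, rose from 53.1 and 64.0 to 176 and 158, and *SLIT3* and *EFNA1* rose by 0.78 and 0.66 on the log2 scale. *PLXNA4* and *ROBO4* were called at under 60 normalized counts in every library, and each lost its call in 3 of the fits that left out a siControl library. *SEMA6B* fell from 139 and 148 to 57.1 and 75.1. Among 32 Wnt genes *TCF7*, *WNT9A* and *WNT3* rose and *LGR4*, a receptor of R-spondins, and *WNT10A* fell, with a median of 0.04. *WNT10A* lost its call in each of the 4 fits that left out a siControl library, and *WNT3* without siControl replicate 2 or siControl + TGFβ replicate 1 (adjusted p = 0.0653 and 0.054). The median was -0.02 without siControl replicate 2. Among 19 Notch genes the ligand *JAG1* rose from 5255 and 5262 to 7960 and 8685 and the ligand *DLL4* fell from 320 and 318 to 144 and 201, with a median of 0.05.

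Metabolic and reference lists had few calls. Of 27 genes of glycolysis and hypoxia *CA12* and *VEGFA* rose, with a median of -0.05, and *CA12* had only 19.0 and 12.6 normalized counts without TGFβ and 81.9 and 31.9 with it, and lost its call without either untreated library or treated replicate 1 (adjusted p = 0.11, 0.268 and 0.402). Of 23 genes of cholesterol and fatty acid synthesis none was called, although 21 lay above 0, with a median of 0.22. None of 10 reference genes was called, with a median of -0.06.

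**Figure D3:**
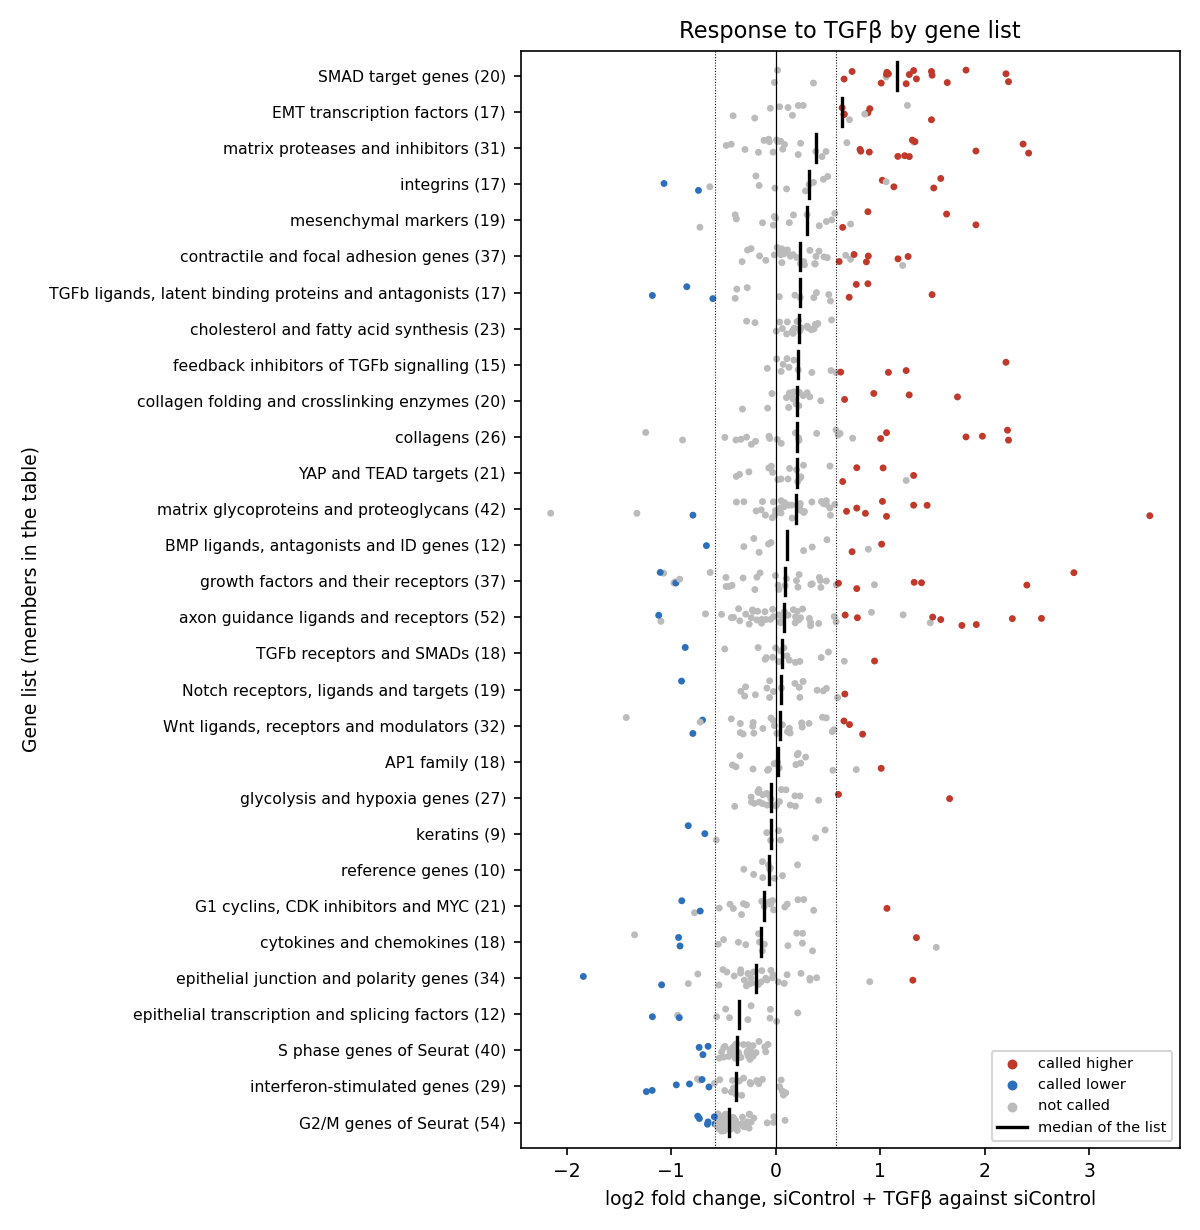
The log2 fold change of siControl + TGFβ against siControl is shown on the x axis for every measured member of 30 gene lists, one list a row, ordered by median. Red points were called higher, blue lower and grey not called, and black bars are medians. SMAD targets lie furthest right with 16 of 20 called, and the S phase, interferon and G2/M lists furthest left, with 3, 6 and 6 genes called lower.

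Outside the lists, *LBH*, a transcriptional cofactor, had the largest rise among genes whose 4 libraries averaged 100 or more, from 22.8 and 10.8 to 301 and 289 normalized counts (log2 fold change 4.14, standard error 0.41, adjusted p = 1.47e-05). *LRRN2*, a leucine-rich repeat membrane protein, had 37.0 and 24.3 without TGFβ and 265 and 290 with it (log2 fold change 3.17, standard error 0.25). *LAPTM5*, a lysosomal membrane protein best known from blood cells, had 36.0 and 38.7 without and 339 and 206 with it (log2 fold change 2.79, standard error 0.34). The blood marker *PTPRC* was not among the genes analysed. *FERMT1*, an integrin activator, had 44.6 and 40.5 without and 246 and 205 with it, and *SIK1*, a salt-inducible kinase, had 1018 and 959 without and 4527 and 4454 with it (log2 fold change 2.18, standard error 0.07). *UCN2*, a urocortin peptide, *TNFAIP8L3* and the tubulin gene *TUBA4A* rose by 2.23, 2.11 and 2.04 on the log2 scale. *ANPEP*, aminopeptidase N, rose from 47844 and 47880 to 98798 and 89436.

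Among genes averaging 100 or more, falls outside the lists were smaller in fold. *FFAR4*, a receptor of long-chain fatty acids, had 154 and 160 normalized counts without TGFβ and 66.8 and 44.2 with it (log2 fold change -1.51, standard error 0.23). *NKX6-2*, a homeobox factor, had 284 and 247 without and 92.7 and 113 with it, and *RASL11A*, a small GTPase, had 860 and 776 without and 329 and 326 with it. *CFB*, complement factor B, had 648 and 817 without and 341 and 269 with it (log2 fold change -1.26, standard error 0.16). *TNFRSF1B*, the TNF receptor 2, had 8506 and 8778 without and 3976 and 3916 with it (log2 fold change -1.13, standard error 0.09). *GPRC5A*, an orphan receptor of epithelia, and *CRABP2*, a carrier of retinoic acid, fell from 29339 and 30031 to 16162 and 14704 and from 11191 and 12130 to 6300 and 5369. *SDR16C5*, a retinol dehydrogenase, fell by 1.16 on the log2 scale. *PLIN4*, a lipid droplet protein, and *SLC25A18*, a mitochondrial glutamate carrier, fell by 1.22 and 1.14, and their calls were lost without siControl replicate 2 (adjusted p = 0.0555 and 0.0968) or siControl + TGFβ replicate 1 (adjusted p = 0.0752 and 0.0673), and for *SLC25A18* also without siControl replicate 1 (0.0692).

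A few genes went from almost no reads to a low level. In 9 genes both untreated libraries had at most 5 normalized counts and both treated ones at least 15. *MYOM3*, a myomesin of muscle, was listed at 0 in both siControl libraries and had 27.0 and 33.9 with TGFβ, which is at least 10.98-fold higher when 3 counts a library are taken as the floor. *XYLT1*, which starts the sugar chains of proteoglycans, had 0.948 and 2.703 without TGFβ and 37.7 and 30.9 with it. *FOXS1*, a forkhead factor, had 0.948 and 0.901 without and 30.2 and 21.6 with it, and *SUN3* had 1.90 and 0.901 without and 16.2 and 25.7 with it. The values 0.948 and 0.901 are the worth of 1 read. *CGB8* and *CLEC18A* also met the rule, but they share reads with near-identical neighbours and their counts are uncertain. *TTC9* and *TMEM132E* were called too, and *KSR2* was not (adjusted p = 0.079). Of the 8 called genes *XYLT1*, *CLEC18A*, *FOXS1*, *TTC9* and *TMEM132E* lost their call in at least 2 of the fits that left out 1 of these 4 libraries. In the reverse direction 2 genes met the rule, *CXCL6*, a chemokine, with 23.7 and 22.5 without TGFβ and 3.23 and 2.06 with it, and *SULT1A1*, which has near-identical paralogs and lost its call without siControl replicate 2 or siControl + TGFβ replicate 1 (adjusted p = 0.145 and 0.0626).

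The response of siControl cells was set beside that of siPHF13 cells only where the difference itself passed a test. The 2 responses shared no libraries. The interaction called 41 genes, 0.308% of those tested. In 33 the log2 response was lower in siPHF13 than in siControl cells, and 28 of these were genes called higher in siControl cells. In 8 it was higher, and 7 of these were genes called lower in siControl cells. The eighth was *UBE2T* (log2 fold changes -0.58 and 0.01, not called in siControl cells). The siControl call and the difference use the same siControl libraries. Sorting by that call therefore favours a smaller siPHF13 response among the 28 and the 7. The response was the smaller one in siPHF13 cells in 36 of the 41. Among them *SIK1* rose by 2.18 in siControl and by 0.87 in siPHF13 cells on the log2 scale (adjusted p of the difference 2.8e-05 in limma), *ADAM19* by 2.37 and 1.15 (adjusted p = 0.000117), *COL1A1* by 2.23 and 1.33 (adjusted p = 0.000358) and *ITGA5* by 1.51 and 0.79 (adjusted p = 0.0015). In mean normalized counts *SIK1* went from 988 to 4490 in siControl and from 4244 to 7763 in siPHF13 cells. *ADAM19* went from 1592 to 8215 and from 4773 to 10628. Both thus had higher values in siPHF13 cells without and with TGFβ, despite the smaller log2 response. *COL1A1* (3389 to 15874 and 1904 to 4800) and *ITGA5* (34992 to 99779 and 29715 to 51261) had lower values there in both states. *IFIT2* had log2 fold changes of -1.24 and -0.45 (adjusted p = 0.0255) and *NEK2* of -0.75 and -0.10 (adjusted p = 0.0208). For *CDH1*, with -1.84 and -0.51, the difference did not pass (adjusted p = 0.327), and for *SNAI1*, with 1.49 and 1.16, it did not either (adjusted p = 0.711). The number of interaction calls depended on single libraries: it was 12 without siControl replicate 2, 16 without siControl + TGFβ replicate 1, 19 without siControl replicate 1, 21 without siControl + TGFβ replicate 2, 22 without siPHF13 replicate 1 and 111 without siPHF13 + TGFβ replicate 1.

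**Figure D4:**
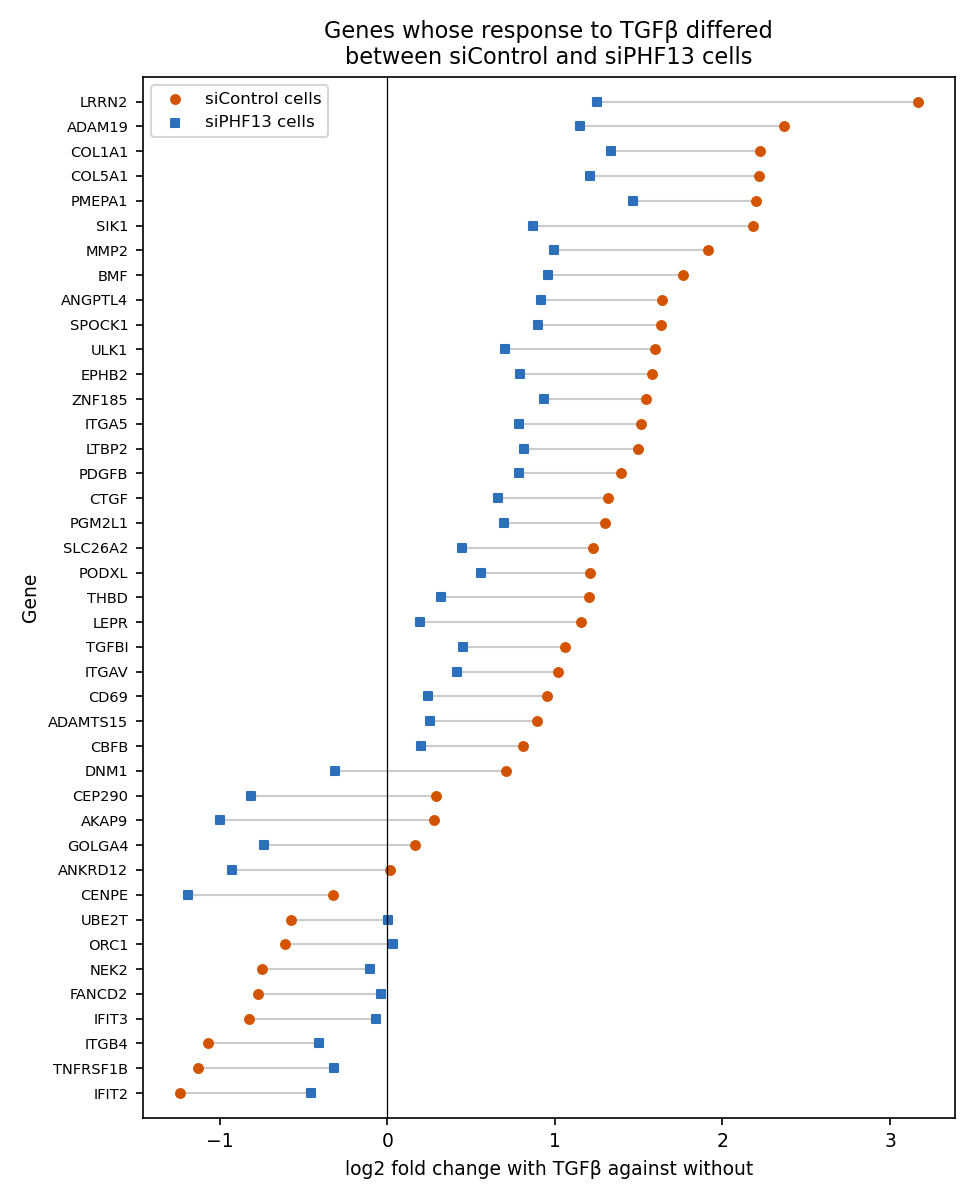
Each row is one of the 41 genes whose response to TGFβ differed between siControl and siPHF13 cells, ordered by the response of siControl cells. The x axis is the log2 fold change with TGFβ against without, with an orange circle for siControl and a blue square for siPHF13 cells. In 28 of the genes called higher in siControl cells the square lies to the left of the circle, and in 7 of those called lower it lies to the right. Sorting by the siControl call favours this pattern, since the call and the difference share the siControl libraries.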

How the data were processed

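The deposited values are a signal per gene and library: counts of reads that the authors divided by the size factors of DESeq2. Per the labels and the submitters' processing notes, poly(A) RNA libraries were trimmed with Trim Galore 0.4.1, aligned to hg19 with STAR 2.7.0 and counted with HTSeq 0.12.4. The gene annotation release and the strand setting are not given in the sources used here. The authors' 3 comparison tables, which hold log2 fold changes, standard errors and p-values, were not used.

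Values were taken as log2(normalized count + 1) and fitted with limma 3.58.1 in R 4.3.3 with a trended prior variance, all 8 libraries in 1 fit, with no filter on low values. Fold changes on this scale understate those of low genes. A gene was called at a Benjamini-Hochberg adjusted p under 0.05 over 13307 genes and an absolute log2 fold change over 0.58, the thresholds of the study's methods. The difference between the responses of siControl and siPHF13 cells was the interaction contrast of the same fit. The fit was tested on simulated data. Whole reads were recovered from the steps between low values, and 100% of values were whole within 0.001. This gave the reads per library, 39196214 to 46700806 over the 8 libraries. The step of siPHF13 replicate 1 was too near 1 read to be certain, so edgeR 4.0.16 and DESeq2 1.42.0 were run as alternatives on 6 libraries, without the siPHF13 pair.

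Named genes were the 15 largest rises and falls among called genes averaging at least 100 normalized counts over the 4 siControl libraries, the 5 rises and 5 falls with the largest difference in normalized counts, the 4 largest called changes of each of 30 gene lists, a set of anchors of the pathway named whether called or not, and genes near 0 without TGFβ. A few further members of the lists are named for their role, after their values were seen. 2 genes the rule selects are not reported here. Members and lists were chosen with earlier results of these data known, and lists are described by counts and medians with no test. Positions are GRCh37 from GENCODE v44lift37, matched for 12298 genes. Promoter windows are RefSeq on GRCh38.p14.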

Additional observations from a re-analysis of the deposited data

Results flagged for a closer look

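The response to TGFβ differed between siControl and siPHF13 cells in 41 genes by the interaction test of limma (adjusted p under 0.05 and a difference over 0.58 on the log2 scale). Values below are the log2 response of siPHF13 cells minus that of siControl cells. They compare responses and not levels. *SIK1* and *ADAM19* had higher values in siPHF13 than in siControl cells without and with TGFβ, and *COL1A1* and *ITGA5* lower ones. Of genes called higher in siControl cells, *LRRN2* differed by -1.92, *SIK1* by -1.31, *ADAM19* by -1.21, the collagens *COL5A1* and *COL1A1* by -1.01 and -0.89, and *MMP2* by -0.92. *LEPR*, the leptin receptor, differed by -0.96, *DNM1*, a dynamin, by -1.02, *ULK1*, a kinase that starts autophagy, by -0.89, and *THBD*, thrombomodulin, by -0.89. *BMF*, *SLC26A2*, *EPHB2*, *PMEPA1*, *SPOCK1*, *ITGA5*, *ANGPTL4* and *CD69* differed by -0.80, -0.78, -0.79, -0.74, -0.73, -0.73, -0.72 and -0.71. The differences of *LTBP2*, *CTGF*, *PODXL* and *ADAMTS15* were -0.68, -0.66, -0.65 and -0.64, and those of *ZNF185*, *PDGFB*, *PGM2L1*, *TGFBI*, *ITGAV* and *CBFB* were -0.61, -0.61, -0.60, -0.61, -0.60 and -0.61.

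Of genes called lower in siControl cells, *TNFRSF1B* differed by 0.81, the interferon-stimulated *IFIT2* and *IFIT3* by 0.78 and 0.76, *FANCD2*, of DNA crosslink repair, by 0.73, *ITGB4* by 0.66, *ORC1*, of replication origins, by 0.64 and *NEK2* by 0.64. *UBE2T*, which had a log2 fold change of -0.58 and was not called in siControl cells, differed by 0.58.

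A further 5 genes were not called in siControl cells and had lower values with TGFβ in siPHF13 cells. They were *AKAP9* (-1.28), *CEP290* (-1.10), *ANKRD12* (-0.94), *GOLGA4* (-0.91) and *CENPE* (-0.86). Over all genes the siPHF13 + TGFβ pair, on which these 5 rest, was the least even of the 4. Its squared replicate difference averaged 23.3 times the counting variance. In these 5 genes its values were 974 and 1027, 552 and 564, 1198 and 1101, 2651 and 2758, and 648 and 792 normalized counts, in the same order. The standard deviations of the pair in these genes were 37.6, 8.75, 68.7, 75.1 and 102 normalized counts. Whether each of the 5 calls held without 1 library of this pair was not examined.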

How the results depend on the processing

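With no threshold on the fold change 1226 genes were called higher and 888 lower. Leaving out 1 library at a time gave 322 to 455 higher, 131 to 235 lower and 12 to 111 interaction calls. The lowest counts were without siControl + TGFβ replicate 1 for rises and without siControl replicate 2 for falls, which then shared 115 of 131 with the 202. No gene called in both fits changed direction under any alternative. Other settings (pseudocount 5, means of at least 100, TMM scaling, only the 4 libraries compared, edgeR and DESeq2 on recovered reads) gave 353 to 473 higher and 157 to 234 lower. Replicate numbers were not taken to pair the libraries: the deviations of same-numbered libraries correlated at r = 0.011 between siControl and siControl + TGFβ and at -0.252 to 0.271 over the 6 pairs of groups. With the replicate block 426 genes were called higher, 204 lower and 39 by the interaction, and of the named genes *CA12* lost its call (adjusted p = 0.0588 in limma). The log2 fold changes of *SMAD2* and *SMAD4*, which were not called, changed sign: *SMAD2* to 0.0499 without siControl replicate 2 and 0.0433 without siControl + TGFβ replicate 1, and *SMAD4* to 0.0309 without the latter. When 1 library was left out *SMAD2* ranged from -0.0521 to 0.0499 and *SMAD4* from -0.0909 to 0.0309. Of all values of named genes under the alternatives 2020 kept direction and call, 60 lost the call, 7 gained one and 3 turned, and of list medians 45 moved by more than the replicate spread and 405 did not. The median standard error was 0.60 on the log2 scale in genes under 30 normalized counts, where a small change could not be called. The cause of these changes was not tested.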

Other observations

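Called genes were also found in families outside the lists above. Of the autophagy, complement and Fanconi anaemia genes most were not called. The families were chosen after their values were seen, and their counts are descriptions. They stand beside 3.27% of all genes called higher and 1.52% called lower. Of 5 thrombin receptor and thrombomodulin genes measured 4 were called higher, with a median log2 fold change of 0.83. *THBD*, thrombomodulin, had 413 and 365 normalized counts without TGFβ and 934 and 860 with it (log2 fold change 1.21, standard error 0.11). *F2R* and *F2RL1*, protease-activated receptors, rose from 5915 and 5944 to 9414 and 8963 and from 18276 and 19024 to 32518 and 33626. Of 6 metallothioneins 4 were called higher, among them *MT2A* from 21188 and 20619 to 34218 and 29220 and *MT1X* from 317 and 416 to 759 and 724. *MT1F*, also among the 4, rests on few reads (1.90 and 15.3 to 33.4 and 27.8). It lost its call without siControl replicate 1 or either siControl + TGFβ library (log2 fold changes 0.95, 2.07 and 2.32). Metallothioneins are near-identical copies and their single counts are uncertain, and *MT2A* fell just short of the size threshold without siControl replicate 2 (0.578) and further without siControl + TGFβ replicate 1 (0.48).

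Of 30 autophagy genes 3 were called higher, with a median of 0.11, and *ULK1* stood out with 4988 and 4792 without TGFβ and 15357 and 14238 with it (adjusted p = 1.68e-08 in limma). *TFEB*, also among the 3, had low counts, 117 and 82.0 without and 171 and 199 with it. Its standard error was 0.25 against 0.08 for *ULK1*. *TFEB* lost its call without siControl replicate 2 or either siControl + TGFβ library (log2 fold changes 0.66, 1.01 and 0.80). *G0S2*, an inhibitor of fat breakdown, rose from 92.9 and 134 to 395 and 374, while *PLIN2*, which coats lipid droplets, fell from 1988 and 1949 to 1149 and 1197 and *PDK4*, a kinase that holds back glucose oxidation, from 241 and 261 to 111 and 122. The median of the 8 perilipin and fuel genes measured was -0.01. Of 13 complement genes 1 rose and 3 fell, including *C3* from 596 and 637 to 296 and 290 beside *CFB*, with a median of 0.04. Of 17 Fanconi anaemia genes *FANCD2* and *FANCE* fell and none rose, with a median of -0.32, and *FANCE* lost its call in each of the 4 fits that left out a siControl library.

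Among genes averaging under 100 normalized counts, *IL17REL*, an interleukin 17 receptor-like gene, had 169 and 167 without TGFβ and 27.0 and 11.3 with it (log2 fold change -3.19), and *DRAXIN*, an axon guidance protein, had 15.2 and 6.31 without and 126 and 136 with it (log2 fold change 3.60). *NEDD9*, a scaffold of focal adhesions, had 9.48 and 0 without and 45.3 and 58.6 with it.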
